A study of Mus musculus with 6 samples.

Results

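Annexins are a family of proteins that bind membrane phospholipids when calcium is present, and their transcripts were followed here in mouse uterine epithelium of early pregnancy. The family members examined were Anxa1 to Anxa9 and Anxa11, and every probe set that the array annotation gives to one of these symbols alone was used. There were 20 such probe sets for 9 of the 10 genes, among 34945 probe sets and 18193 genes with a single symbol. Anxa11 was listed only on 1 probe set that it shares with predicted genes, and it was not analysed here. The 6 arrays fell into 3 groups of 2, each from pregnant females whose strain and age the labels do not give. Sox17 heterozygous mutants, which carry a Sox17 GFP/+ genotype, were sampled on day 4 (samples 253 and 281), wild types on day 4 (277 and 284) and further wild types on day 1 (302 and 303), day 1 being the day of the vaginal plug. Sheets of epithelium had been loosened with pancreatin and dispase, and the RNA was hybridised to 1-colour Affymetrix 3′ expression arrays. Below, a pair of signals is always given in the sample order just stated, and signals are on a linear scale without a unit.

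The family shares a folded core of repeats that docks onto phosphatidylserine and related lipids at the inner face of membranes, while a tail that differs from member to member binds partners such as S100 proteins. Annexins are known for roles in secretion and endocytosis, membrane repair, the organisation of actin at membranes, blood clotting and the control of inflammation. In the uterus, the luminal epithelium remodels its apical membrane between mating and the arrival of the blastocyst, and in human endometrium ANXA4 is known as a transcript of the progesterone-dominated secretory phase.

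All arrays had been scaled to a trimmed mean of 500, but the distributions differed. The median signal was 137.6 on WT day 4 array 277, against 66.17 to 77.98 on the other 5 arrays, so the called changes were also fitted without it. The median gap between the arrays of a pair, on the log2 scale, was 0.308 in heterozygotes, 0.662 in WT day 4 and 0.352 in WT day 1 over all probe sets. Over the annexin probe sets it was 0.222 in heterozygotes, 0.272 in WT day 4 and 0.229 in WT day 1. All 12 measured epithelium markers were above 50 on every array. The probe set of Sox17 with the highest signals read 30189 and 28810 in heterozygotes, 34794 and 35060 in WT day 4, and 7738 and 8671 in WT day 1. It was lower on both heterozygous arrays than on both WT day 4 arrays, but by only −0.24 ± 0.22 on the log2 scale (SE, adjusted p = 0.654 in limma), and by −0.64 ± 0.23 on the other Sox17 probe set (adjusted p = 0.407). Where a gene had several probe sets, the one with the highest mean log2 signal is called leading. Adjusted p-values come from limma over all 34945 probe sets, with the 6 arrays in 1 model and 0.05 as the threshold. With 2 arrays a group, the assumed spread matters, so the p from a limma model whose prior spread follows signal intensity is given beside the default one and called the trend adjusted p. The default threshold alone decides what is called risen or fallen. Nothing in the labels says how the sampled animals relate to the numbers, so a p-value measures the spread between these samples only.

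Anxa9 and Anxa8 had the widest ranges between group means among the 9 genes. Anxa9, also known as pemphaxin, is a divergent annexin whose calcium-binding sites are changed from the family pattern. Its single probe set (1431554_a_at) read 691.5 and 406.4 in Sox17 heterozygotes, 22.4 and 32.5 in WT day 4, and 290.3 and 281.7 in WT day 1. No group overlapped another: Anxa9 was low only in WT day 4, where both arrays were under 50. Its group means spanned 4.25 log2 units, a range that 2.52% of leading probe sets exceeded. Anxa8, an annexin best known from stratified epithelia, read 27.0 and 34.6 on its leading probe set (1417732_at) in heterozygotes, 318.1 and 178.4 in WT day 4, and 539.4 and 322.0 in WT day 1. It was low in heterozygotes alone, so the groups that were low differed between the genes. Its span was 3.73 log2 units, exceeded by 3.94% of leading probe sets. Anxa3 came next with 1.99 (exceeded by 21.3%), and Anxa1 was the narrowest with 0.34 (exceeded by 88.0%).

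The sequence just upstream of the genes is shown for Anxa9 and Anxa8 and, for contrast, for Anxa7 and Anxa2, whose windows hold matches to the searched motifs. The windows are the 250 bases before the most upstream annotated start, from RefSeq on GRCm38.p6, and 8 of the 10 genes had at least 1 window (11 in all). Both strands were searched for a SOX core (ACAAT), an AP-1 site (TGANTCA), an estrogen response element (GGTCA and TGACC, 3 bases apart), a progesterone response element (GNACA and TGTNC, 3 bases apart), a GC box (GGGCGG) and a TATA box (TATAAA). Capitals mark the matches, and no base fell in 2 of them. The windows are chr3:95315181-95315430 on the minus strand for Anxa9, chr14:34085729-34085978 on the plus strand for Anxa8, chr14:20480134-20480383 on the minus strand for Anxa7 and chr9:69453433-69453682 on the plus strand for Anxa2. Each is written 5′ to 3′ in the direction of its gene.
Anxa9: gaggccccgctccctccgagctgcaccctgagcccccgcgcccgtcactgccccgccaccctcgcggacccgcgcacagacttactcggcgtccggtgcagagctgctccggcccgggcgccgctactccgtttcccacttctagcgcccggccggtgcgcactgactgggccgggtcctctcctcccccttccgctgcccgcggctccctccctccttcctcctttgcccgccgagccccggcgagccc
Anxa8: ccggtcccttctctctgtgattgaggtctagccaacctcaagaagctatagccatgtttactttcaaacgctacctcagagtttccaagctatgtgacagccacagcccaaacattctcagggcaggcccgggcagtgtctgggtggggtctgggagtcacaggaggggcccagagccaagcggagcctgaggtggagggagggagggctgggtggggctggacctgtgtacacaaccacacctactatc
Anxa7: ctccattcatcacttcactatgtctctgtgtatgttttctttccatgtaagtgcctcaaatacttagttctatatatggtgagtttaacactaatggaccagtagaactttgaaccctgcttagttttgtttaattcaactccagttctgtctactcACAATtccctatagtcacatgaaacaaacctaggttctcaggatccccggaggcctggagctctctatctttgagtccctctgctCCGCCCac
Anxa2: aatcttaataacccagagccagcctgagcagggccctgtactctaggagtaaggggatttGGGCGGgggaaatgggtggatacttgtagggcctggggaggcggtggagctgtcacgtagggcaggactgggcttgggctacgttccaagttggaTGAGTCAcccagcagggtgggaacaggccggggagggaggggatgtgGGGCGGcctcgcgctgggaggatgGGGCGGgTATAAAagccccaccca
The Anxa9 and Anxa8 windows held 0 matches to the 6 motifs, as did the window of a second, downstream Anxa9 start. Both Anxa4 windows and the Anxa5 window, which are not shown, also held 0, so a lack of matches was not particular to Anxa9 and Anxa8. The Anxa7 window held 1 SOX core and 1 GC box, the GC box on the opposite strand. The window of a second, downstream Anxa7 start, not shown, held 0 SOX cores and 4 GC boxes. The Anxa2 window held 1 AP-1 site, 3 GC boxes and 1 TATA box. Of the other windows not shown, that of Anxa1 held 1 TATA box, and that of Anxa11 held 1 SOX core and 3 GC boxes. Over all 32817 promoter windows of this length, 27.7% held the SOX core, 6.75% the AP-1 letters, 0.064% the estrogen element, 0.387% the progesterone element, 32.7% the GC box and 12.4% the TATA box. These are matches of letters and say nothing about binding.

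**Figure D1:**
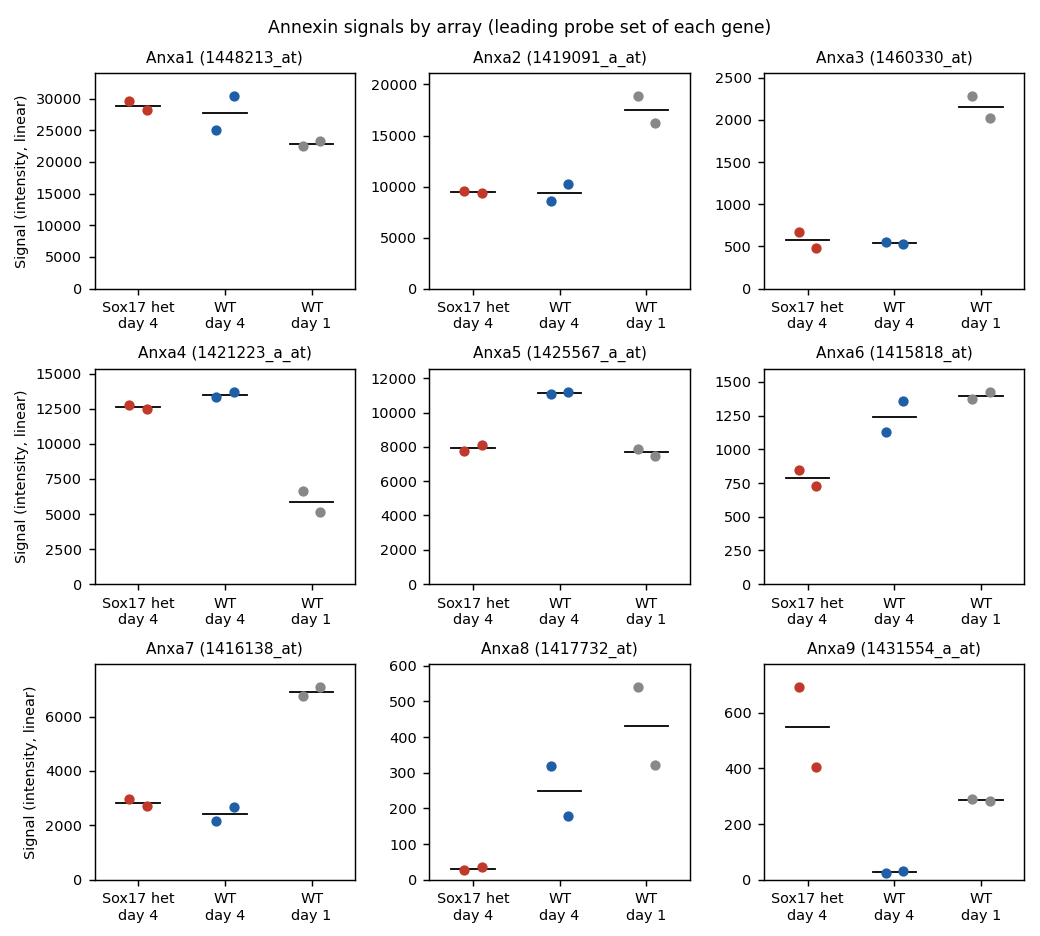
Signals of the leading probe sets of 9 annexins on linear axes that start at 0, with a point for each of the 2 arrays of a group and a bar at the group mean. Anxa9 sits lowest in WT day 4 (22.4 and 32.5) and Anxa8 lowest in Sox17 heterozygotes (27.0 and 34.6), while Anxa1 lies between 22522 and 30372 on all 6 arrays.

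The heterozygous effect was read from Sox17 heterozygous against WT epithelium on day 4. In this comparison Anxa9 and Anxa8 differed most, in opposite directions, and neither passed the default threshold. Anxa9 was 19.0-fold higher in heterozygotes (log2 difference 4.25 ± 0.37, SE, n = 2 arrays a group), with an adjusted p of 0.192 in limma and a trend adjusted p of 0.000841. That p of 0.192 was also the smallest of any probe set in this comparison, so 0% of all probe sets were called in either direction, and 0 of the 20 annexin probe sets. At an unadjusted p under 0.05 there were 4186 probe sets (12%), of which 4 were annexins: Anxa9, both probe sets of Anxa8, and the leading one of Anxa6.

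Anxa8 was 7.57-fold lower in heterozygotes on its leading probe set (−2.92 ± 0.44, adjusted p = 0.204, trend adjusted p = 0.00968). The second Anxa8 probe set, whose name marks it as able to match more than 1 transcript, read 9.7 and 38.2 in heterozygotes, 295.7 and 144.5 in WT day 4, and 631.5 and 313.9 in WT day 1. It differed by −3.34 ± 0.81 between heterozygotes and WT day 4 (adjusted p = 0.297, trend adjusted p = 0.0276). Both heterozygous arrays were therefore under 50 on both Anxa8 probe sets, where a signal is best read as low. Without array 277 the differences in limma were 3.99 for Anxa9 (adjusted p = 0.166, trend adjusted p = 0.00539) and −2.51 for Anxa8 (adjusted p = 0.223, trend adjusted p = 0.0472). Without heterozygous array 253 the trend adjusted p of Anxa8 was 0.0755 and that of Anxa9 was 0.0332.

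Under the intensity trend, 1 annexin probe set was called higher in heterozygotes than in WT day 4 and 2 lower, against 1.34% higher and 1.03% lower over all probe sets. Signals did not overlap between the groups for 3 annexin probe sets that were higher and 7 that were lower, against 18.4% and 28.0% of all probe sets. The lower ones included Anxa5 and Anxa6. Anxa5, the phosphatidylserine-binding annexin used to stain dying cells and known to hinder clotting, read 7754 and 8087 in heterozygotes, 11077 and 11204 in WT day 4, and 7882 and 7479 in WT day 1. WT day 4 stood above both other groups, which overlapped, and the difference between heterozygotes and WT day 4 was −0.49 ± 0.21 (adjusted p = 0.450 in limma, trend adjusted p = 0.137). Anxa6, a larger member with a duplicated core that links membranes to endocytic traffic, read 848.2 and 728.3 in heterozygotes, 1129 and 1355 in WT day 4, and 1371 and 1427 in WT day 1. The difference between heterozygotes and WT day 4 was −0.65 ± 0.24 (adjusted p = 0.408, trend adjusted p = 0.0954), and the heterozygous arrays were the lowest of the 6 on this leading probe set. The other Anxa6 probe sets differed by −0.38 ± 0.32 (1429246_a_at), −0.50 ± 0.41 (1429247_at) and −0.11 ± 0.33 (1442288_at). On the last 2 the day 4 groups overlapped and the WT day 1 arrays were the lowest.

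The leading probe sets of the other 5 annexins had small differences between heterozygotes and WT day 4. The log2 differences, with 95% intervals from limma, were 0.07 (−0.54 to 0.68) for Anxa1, 0.02 (−0.61 to 0.65) for Anxa2, and 0.08 (−0.63 to 0.79) for Anxa3. They were −0.10 (−0.73 to 0.54) for Anxa4 and 0.24 (−0.39 to 0.87) for Anxa7. Each interval still holds differences of the size seen in Anxa5, so equal levels are not shown. The signs of Anxa1, Anxa2, Anxa3 and Anxa4 turned under at least 1 alternative scaling or left-out array, while those of Anxa5 to Anxa9 held under all 25 alternatives. The median difference was 0.02 over the leading annexin probe sets and −0.10 over all 20 of them, against −0.20 over all leading probe sets and −0.18 over all probe sets.

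**Figure D2:**
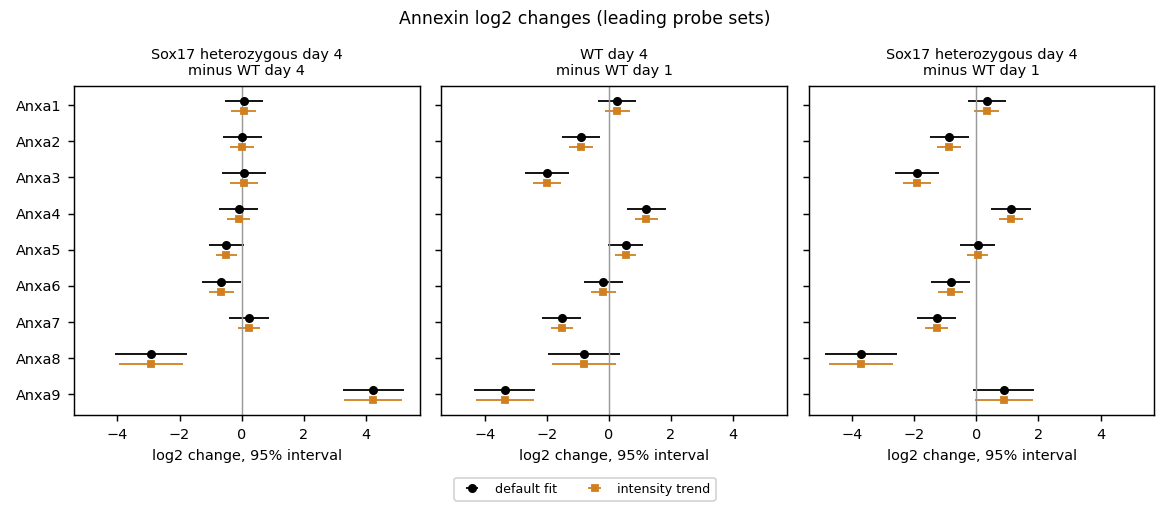
Log2 differences of the leading annexin probe sets in the 3 comparisons, with 95% intervals from limma at its default settings (circles) and with an intensity trend (squares). Anxa9 (4.25) and Anxa8 (−2.92) lie apart from the other annexins in the comparison of heterozygotes with WT day 4, and Anxa9 (−3.36) is the lowest in the comparison of WT day 4 with WT day 1.

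The change over early pregnancy was read from WT day 4 against WT day 1. Anxa9, Anxa3 and Anxa7 fell, and no annexin rose at the default threshold. The fall of Anxa9 was 10.3-fold (−3.36 ± 0.37, adjusted p = 0.0172 in limma, trend adjusted p = 0.000155). Anxa3, an annexin known from neutrophils, where it associates with granules, read 675.4 and 485.8 in heterozygotes, 552.1 and 529.0 in WT day 4, and 2281 and 2028 in WT day 1. Both day 4 groups lay far below day 1 and overlapped each other, and the WT fall was 3.97-fold (−1.99 ± 0.27, adjusted p = 0.0248, trend adjusted p = 3.32e-05). Anxa7, or synexin, which promotes the fusion of membranes in secretion, read 2966 and 2708 in heterozygotes, 2152 and 2676 in WT day 4, and 6742 and 7074 in WT day 1. Both day 4 groups again lay below day 1, and the WT fall was 2.88-fold (−1.53 ± 0.24, adjusted p = 0.0327, trend adjusted p = 4.39e-05).

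Anxa4, which binds apical membranes of secretory epithelia, read 12800 and 12485 in heterozygotes, 13313 and 13715 in WT day 4, and 6624 and 5165 in WT day 1. It was thus higher on every day 4 array than on day 1, by 1.21 ± 0.24 in WT (adjusted p = 0.0536 in limma, just outside the threshold, trend adjusted p = 0.000363). Its other probe sets differed by 1.20 ± 0.26 (adjusted p = 0.0649) and 0.96 ± 0.34 (adjusted p = 0.168), in the same direction. Anxa2, which with S100a10 forms a complex that gathers plasminogen and its activator at the cell surface, read 9611 and 9361 in heterozygotes, 8544 and 10237 in WT day 4, and 18839 and 16204 in WT day 1. The day 1 arrays were the highest, and WT day 4 differed from them by −0.90 ± 0.24 (adjusted p = 0.0950, trend adjusted p = 0.00280). Anxa5 differed by 0.54 ± 0.21 (adjusted p = 0.2, trend adjusted p = 0.0268).

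On their leading probe sets, Anxa8 and Anxa6 were both lower in WT day 4 without passing either test. The differences were −0.80 ± 0.44 for Anxa8 (adjusted p = 0.326 in limma, trend adjusted p = 0.285) and −0.18 ± 0.24 for Anxa6 (adjusted p = 0.685, trend adjusted p = 0.564). The other Anxa6 probe sets differed in the opposite direction, as described below. Anxa1, a glucocorticoid-induced annexin that restrains inflammation through formyl peptide receptors, read 29569 and 28237 in heterozygotes, 24999 and 30372 in WT day 4, and 22522 and 23281 in WT day 1 on its leading probe set. The WT difference was 0.27 ± 0.23 (adjusted p = 0.517, trend adjusted p = 0.376), with the day 1 arrays lowest.

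Of the 20 annexin probe sets, 0 were called higher and 5 lower in WT day 4 than in WT day 1, against 5.04% higher and 4.15% lower over all probe sets. With the intensity trend the annexin counts were 5 higher and 6 lower, against 11.1% and 9.64%. Signals did not overlap for 7 that were higher and 10 that were lower, against 32.4% and 22.1%. The median change was −0.80 over the 9 leading annexin probe sets, against 0.30 over all leading probe sets. It was −0.09 over all 20 annexin probe sets, against 0.24 over all probe sets. Without array 277 the WT change of Anxa9 was −3.10 (adjusted p = 0.0496 in limma), that of Anxa3 −2.02 (adjusted p = 0.0609) and that of Anxa7 −1.37 (adjusted p = 0.0641). With the intensity trend and without array 277 all 3 passed (adjusted p = 0.00111 for Anxa9, adjusted p = 0.000891 for Anxa3 and adjusted p = 0.000560 for Anxa7). With each array centred on its median, the default model gave −3.57 for Anxa9 (adjusted p = 0.0218 in limma), an adjusted p of 0.0428 for Anxa3 and −1.74 for Anxa7, which then no longer passed (adjusted p = 0.105). In the default limma model, 0 of the 20 annexin probe sets were called without array 253, 281, 302 or 303, and so were 0 of all 34945 probe sets. Without 277 or 284, 3 annexin probe sets were called, against 6.36% of all probe sets without 277 and 8.99% without 284. In each of these models 8 to 10 annexin probe sets were at an unadjusted p under 0.05, against 18% to 35.5% of all probe sets. With the intensity trend 8 to 12 were called, against 13.4% to 26% of all probe sets.

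Sox17 heterozygous epithelium of day 4 was also set against WT epithelium of day 1, where genotype and day differ together and cannot be told apart. This comparison shares its arrays with the other 2 and is no independent evidence. Anxa8 and Anxa3 fell. The fall of Anxa8 on its leading probe set was 13.2-fold (−3.73 ± 0.44, adjusted p = 0.0254 in limma, trend adjusted p = 0.000198) and that of Anxa3 was 3.75-fold (−1.91 ± 0.27, adjusted p = 0.0338, trend adjusted p = 6.04e-05). The second Anxa8 probe set differed by −4.45 ± 0.81 and was not called (adjusted p = 0.0558 in limma, trend adjusted p = 0.000715). Anxa9 differed by 0.89 ± 0.37 (adjusted p = 0.262, trend adjusted p = 0.210), with both heterozygous arrays above both day 1 arrays. Anxa7 (−1.29 ± 0.24, adjusted p = 0.0571) and Anxa4 (1.11 ± 0.24, adjusted p = 0.0780) were near the threshold, and Anxa5 differed by 0.05 ± 0.21 (adjusted p = 0.938). The annexin counts were 0 higher and 3 lower, against 3.18% and 2.89% of all probe sets, and 3 higher and 9 lower with the intensity trend, against 9.21% and 7.92%. Signals did not overlap for 7 that were higher and 9 that were lower, against 30.1% and 30.2%. With each array centred on its median, Anxa8 still passed (adjusted p = 0.0149 in limma) and Anxa3 did not (−1.85, adjusted p = 0.0806). In the default limma model, 0 annexin probe sets were called without array 253, 281, 302 or 303, as were 0 of all probe sets. In those models 8 or 9 annexin probe sets were at an unadjusted p under 0.05, against 14.1% to 15.8% of all probe sets. Without 277 or 284, 3 were called, against 7.53% of all probe sets. In the trend models that left out 1 array 7 to 12 were called, against 9.62% to 22.8%.

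Probe sets of the same gene did not always move together, and 6 of the 9 genes had more than 1. The clearest case was Anxa1. Its second probe set (1444016_at) read 310.7 and 363.0 in heterozygotes, 612.4 and 307.3 in WT day 4, and 2336 and 2079 in WT day 1, and it fell in WT day 4 by 2.34 ± 0.40 on the log2 scale (adjusted p = 0.0399 in limma). It also fell by 2.71 ± 0.40 in heterozygotes against WT day 1 (adjusted p = 0.0368), whereas the leading Anxa1 probe set had higher signals in both day 4 groups. Without array 277 the WT change of this probe set was −2.84 (adjusted p = 0.0362 in limma). The labels do not say which Anxa1 transcripts the second probe set detects. In Anxa7 the third probe set (1438764_at) fell in WT day 4 like the leading one, by 1.61 ± 0.24 (adjusted p = 0.0311 in limma), while 1416137_at differed by −0.80 ± 0.41 (adjusted p = 0.298). Without array 277 the change of 1438764_at was −1.78 (adjusted p = 0.0471). In Anxa6 the probe sets 1429247_at and 1442288_at differed by 0.96 ± 0.41 (adjusted p = 0.226) and 0.93 ± 0.33 (adjusted p = 0.172) in WT day 4 against day 1, opposite in sign to the leading one. Their trend adjusted p was 0.13 and 0.0386, so 1442288_at passed under the intensity trend. The remaining Anxa6 probe set, 1429246_a_at, differed by 0.18 ± 0.32 (adjusted p = 0.769). In Anxa2 the probe set 1437691_at was under 50 on all 6 arrays, and 1437692_x_at read between 219.0 and 313.0 with all groups overlapping.

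**Figure D3:**
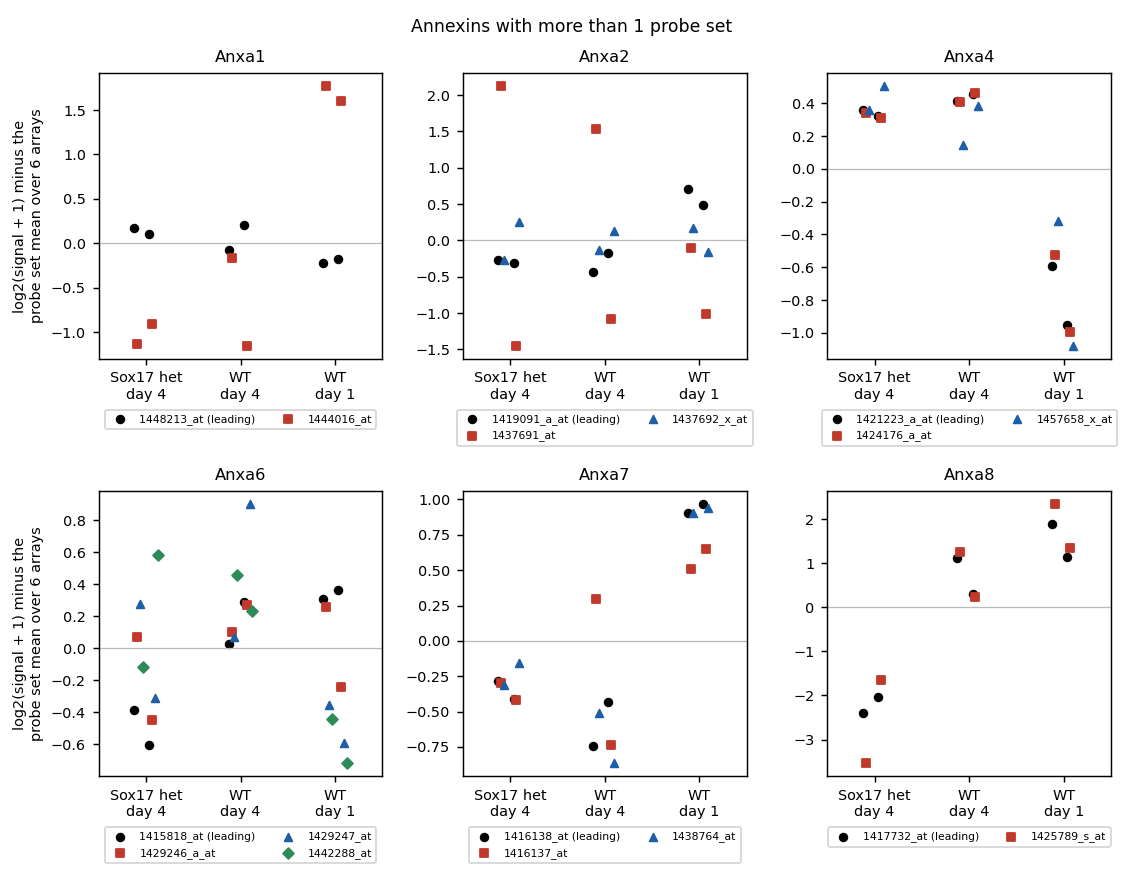
Log2 signals of the 6 annexins with several probe sets, each probe set centred on its own mean over the 6 arrays, with 1 symbol shape per probe set and a point per array. The probe sets of Anxa8 follow each other across the groups, and those of Anxa4 are all lowest in WT day 1. In contrast, 1444016_at of Anxa1 is highest in WT day 1 (2336 and 2079) and the leading Anxa1 probe set is lowest there.

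Because an epithelial preparation may hold other cells, whole marker lists were summed on every array. The summed signal of 11 stroma markers was 1140 and 1694 in heterozygotes, 2496 and 3274 in WT day 4, and 13165 to 18953 in WT day 1. Fbln1 alone gave 9585 and 9945 of the day 1 sums, and it fell in WT day 4 (−4.33 ± 0.33, adjusted p = 0.0106 in limma). Of the 11 stroma markers, 8 were lower on both heterozygous arrays than on both WT day 4 arrays and 1 was higher, against 30.6% and 18% of all genes. The higher one was Fbln1, with 647.8 and 776.7 in heterozygotes, and 618.1 and 379 in WT day 4. The collagen gene Col1a1 did not exceed 115.6 on any array. The 5 mesothelium markers outside the epithelium list summed to 148 and 233 in heterozygotes, 222 and 547 in WT day 4, and 615 and 1048 in WT day 1, with Msln at 2.6 and 9.4 in heterozygotes, 62.5 and 45.4 in WT day 4, and 75.6 and 205.2 in WT day 1. The 8 smooth muscle markers summed to 201 to 247 in heterozygotes, 358 to 531 in WT day 4 and 968 to 1006 in WT day 1. Like Anxa8, these 3 lists had their lowest sums in heterozygotes and their highest in WT day 1, although the mesothelium sums of heterozygotes and WT day 4 overlapped. Their part in the Anxa8, Anxa2, Anxa3 and Anxa6 values was not tested.

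Neutrophil markers, relevant to Anxa1 and Anxa3, summed to 125 to 144 in heterozygotes, 266 to 654 in WT day 4 and 220 to 317 in WT day 1 over 9 genes. On both arrays of the group, 9 of these genes were under 50 in heterozygotes, 3 in WT day 4 and 7 in WT day 1. In WT day 4, S100a8, Mpo, Ngp and Mmp8 passed 50 on array 277 alone, and Elane and Csf3r on array 284 alone. Low signals were rarer on array 277 in general. Of all 45101 probe sets, 27% were under 50 on it, against 41.6% to 44.6% on the other arrays. The 9 macrophage markers summed to 13742 to 14389 in heterozygotes, 17056 to 17229 in WT day 4 and 21135 to 22590 in WT day 1. Cd14, an endotoxin co-receptor, gave most of the sum on every array, and Cd68, a lysosomal glycoprotein, added a large part only in WT day 1. Cd14 read 12139 and 12925 in heterozygotes, 13966 and 15491 in WT day 4, and 15709 and 14736 in WT day 1. Cd68 read 307.8 and 167.4 in heterozygotes, 224.2 and 157.4 in WT day 4, and 6401 and 5746 in WT day 1, and it fell 32.1-fold in WT day 4 (adjusted p = 0.0113 in limma). The sums therefore follow these genes and not the list: between WT day 4 and WT day 1, 5 of the 9 genes were higher and 1 was lower without overlap, with a median log2 change of 1.32. Over all genes, 35.4% were higher and 21.3% lower without overlap, with a median of 0.30. Lyz2 (2.42 on the log2 scale, adjusted p = 0.0179 in limma) and C1qa (3.18, adjusted p = 0.0476, without array 277 adjusted p = 0.115) rose. Between heterozygotes and WT day 4, 6 of the 9 macrophage markers were lower and 0 higher without overlap, with a median of −0.75. Over all genes, 30.6% were lower and 18% higher without overlap, with a median of −0.20. The 8 endothelium markers summed to 234 to 258 in heterozygotes, 456 to 773 in WT day 4 and 253 to 383 in WT day 1. The macrophage sums of heterozygotes were below those of both other groups, and the endothelium sums were highest in WT day 4. The 8 measured lymphocyte markers summed to 172 to 270 in heterozygotes, 315 to 737 in WT day 4 and 432 to 467 in WT day 1. The 3 measured erythrocyte markers summed to 30 to 32 in heterozygotes, 102 to 254 in WT day 4 and 20 to 33 in WT day 1. In the smooth muscle, neutrophil, endothelium, lymphocyte and erythrocyte lists, the higher of the 2 WT day 4 sums was that of array 277. On array 284 the lymphocyte sum (315) was below both WT day 1 sums, and the neutrophil sum (266) lay between them. None of these lists of other cell types had its highest sum in heterozygotes, the group in which Anxa9 was highest, and the part of these lists in the annexin values was not tested. Over the 74 marker genes of all lists, with genes in 2 lists counted in both, 0 were called between heterozygotes and WT day 4, as for all genes. Between WT day 4 and WT day 1, 3 rose and 7 fell, against 5.96% and 4.58% of all genes. Between heterozygotes and WT day 1, 1 rose and 9 fell, against 3.80% and 3.35% of all genes. In a bulk sample, fewer cells of a type and less RNA per cell cannot be told apart.

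Partners and relatives of the annexins were read from 7 gene lists with 67 measured genes, each by its leading probe set. In WT day 4 against day 1, 4 rose and 4 fell, against 5.96% and 4.58% of all genes. Without array 277, the changes of all 17 partner, relative and marker genes called between WT day 4 and WT day 1 kept their direction, and 8 of the 17 still passed, among them Ahnak, Cpne2, Plgrkt and Pla2g4a. With the intensity trend and without array 277, 15 of the 17 passed. S100g (adjusted p = 0.0642 in limma), Capn1 (adjusted p = 0.0602), Atp11a (adjusted p = 0.0634) and S100a9 (adjusted p = 0.0918) did not pass in the default model without it. In heterozygotes against WT day 4, 0 were called, as for all genes. With the intensity trend 2 were called higher and 0 lower, against 1.7% and 1.41% of all genes. In heterozygotes against WT day 1, 3 rose and 4 fell, against 3.80% and 3.35%. The 2 further annexins, Anxa10 and Anxa13, had no signal above 61.8 on any array and were called in no comparison.

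Among the 13 measured S100 proteins, the calcium-binding partners of several annexins, 1 rose and 1 fell in WT day 4 against day 1. S100g, or calbindin-D9k, read 32823 and 31071 in heterozygotes, 33259 and 39885 in WT day 4, and 1784 and 4364 in WT day 1, a WT rise of 3.71 ± 0.49 (adjusted p = 0.0236 in limma). S100a9, also a neutrophil gene, fell by 2.16 ± 0.38 (adjusted p = 0.0416, trend adjusted p = 0.178) at signals of 18 and 15.4 in WT day 4, and 99.0 and 61.5 in WT day 1. S100a10, the partner of Anxa2, read 5172 and 5421 in heterozygotes, 3156 and 4143 in WT day 4, and 9152 and 8182 in WT day 1. Like Anxa2 it was highest in WT day 1, with a WT difference of −1.26 ± 0.25 (adjusted p = 0.0544, trend adjusted p = 0.000279) and a difference of 0.55 ± 0.25 between heterozygotes and WT day 4 (adjusted p = 0.466, trend adjusted p = 0.142). S100a6, a partner of Anxa11 and others, differed by 0.06 ± 0.39 (adjusted p = 0.940) in WT, and S100a11 was not analysed here.

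Of 15 measured genes of the ferlins and membrane repair, 1 rose and 1 fell in WT day 4. Ahnak, the giant scaffold that binds the complex of Anxa2 and S100a10, read 3031 and 2489 in heterozygotes, 1074 and 1300 in WT day 4, and 12377 and 11974 in WT day 1. It fell by 3.36 ± 0.25 in WT (adjusted p = 0.0106 in limma), and heterozygotes were above WT day 4 by 1.22 ± 0.25 (adjusted p = 0.261, trend adjusted p = 0.00441). Capn1, a calcium-activated protease, rose by 1.81 ± 0.28 in WT (adjusted p = 0.0332), and Dysf, the founding ferlin, differed by −4.56 ± 0.89 (adjusted p = 0.0515, trend adjusted p = 0.00564). Of 9 copines, another family of calcium-dependent phospholipid binders, Cpne2 fell in WT by 5.62 ± 0.49 (adjusted p = 0.0122), with signals of 6.2 and 5.1 in WT day 4, and 329.4 and 321.1 in WT day 1. Cpne8 read 728.9 and 652.9 in heterozygotes, 250.9 and 196.0 in WT day 4, and 910.8 and 525.7 in WT day 1, and heterozygotes were above WT day 4 by 1.63 ± 0.36 (adjusted p = 0.279, trend adjusted p = 0.0143).

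In the cell-surface plasminogen system (7 measured genes), the plasminogen receptor Plgrkt rose in WT day 4 by 2.28 ± 0.26 (adjusted p = 0.0185 in limma). The urokinase receptor Plaur fell by 3.57 ± 0.60 in heterozygotes against WT day 1 (adjusted p = 0.0473). Of 6 phospholipase A2 genes, whose activity annexins are known to restrain, Pla2g4a rose in WT by 1.77 ± 0.27 (adjusted p = 0.0309). Of 14 genes of phosphatidylserine exposure and clearance, Atp11a, a flippase that returns the lipid to the inner leaflet, fell in WT by 1.98 ± 0.36 (adjusted p = 0.0455). None of the 3 measured formyl peptide receptors was called, and Fpr2 differed by 2.16 ± 1.39 in WT (adjusted p = 0.395), with array 277 alone above 100 (229.7).

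**Figure D4:**
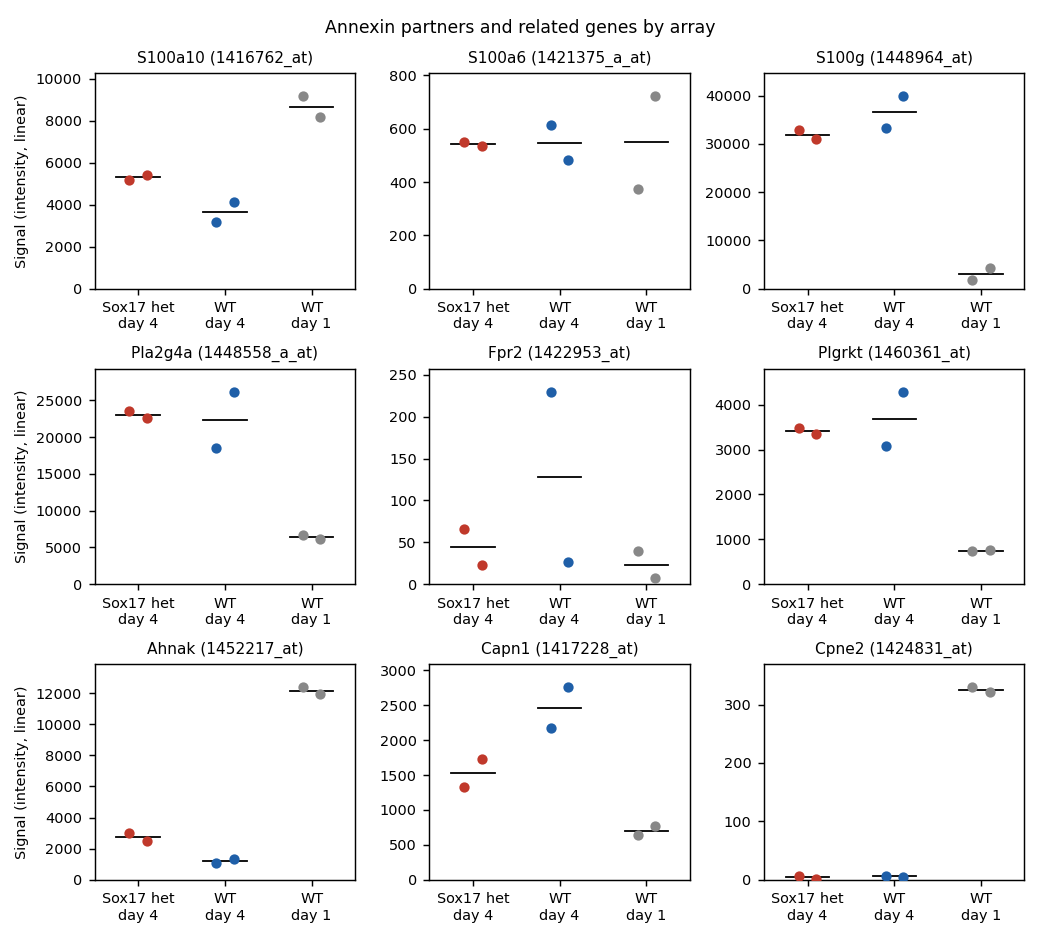
Signals of 9 annexin partner and related genes on linear axes that start at 0, with a point for each of the 2 arrays of a group and a bar at the group mean. S100a10 and Ahnak are highest in WT day 1 (9152 and 8182, 12377 and 11974) and lowest in WT day 4, whereas S100g is lowest in WT day 1 (1784 and 4364).

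For the 3 annexins with the widest ranges, the genes with the most similar pattern were found by the root mean square difference between centred log2 signals over the 6 arrays, among 18184 other genes. Arrays of one group share their treatment, so closeness over 6 arrays is a description. Nearest to Anxa9 were Akr1c12, an aldo-keto reductase gene (0.458), Lmo7 (0.475) and Egfl6 (0.479). Akr1c12 read 864.1 and 413.5 in heterozygotes, 35.1 and 74.6 in WT day 4, and 254.0 and 287.0 in WT day 1, low in WT day 4 as Anxa9 was. Nearest to Anxa8 were Gm32461 (0.247), 1810019N24Rik (0.327) and Ceacam2 (0.340), none of which exceeded 93.4 on any array. Nearest to Anxa3 were Irf1, an interferon-responsive transcription factor (0.075), Ttc39c (0.112) and Myo1d, an unconventional myosin (0.113). Irf1 read 1400 and 1053 in heterozygotes, 1278 and 1099 in WT day 4, and 5362 and 4222 in WT day 1.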

How the data were processed

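Each of 6 uterine epithelium samples gave total RNA that was amplified, biotin-labelled and hybridised to its own array, per the labels' protocols. The authors deposited 1 linear signal intensity per probe set and array. Transcriptome Analysis Console, Affymetrix Expression Console and RMA appear in the submitters' processing notes with no role or version. The deposited intensity values are unlike RMA output, which would be log2 values with equal quantiles: after trimming 2% at each end, every array had a mean of 500. How the probes were summarised is therefore unknown, and without detection calls a signal under 50 is called low.

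The platform annotation gave 34945 of the 45101 probe sets exactly 1 gene symbol, and these were analysed. It gave 932 probe sets several symbols and listed none for 9160, and 64 were controls. A RefSeq table held the gene IDs of 34741 and changed 0 symbols. Signals were transformed as log2(signal + 1) without normalization or filter, which understates folds of dim probe sets. The model in limma 3.58.1 under R 4.3.3 had 1 coefficient for each of the 3 groups and 3 residual degrees of freedom, with Benjamini-Hochberg adjustment over all 34945 probe sets. Errors after ± are standard errors of that default model. No exact permutation test was made, since 2 arrays against 2 allow no p under 0.333. The scripts were tested on simulated data.

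Genes named are all annexins, Sox17, at most 4 called genes per list and preset partners, plus the 3 nearest genes of each of the 3 widest annexins. Cpne8 and the single marker genes Col1a1, Msln and Cd14 were chosen after their values were seen. The annexins and the gene lists were chosen with earlier results of these data known. Alternatives covered the normalization, pseudocount, dim probe sets, prior, probe set choice, arrays fitted and thresholds.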

Additional observations from a re-analysis of the deposited data

How the results depend on the processing

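Counts of called annexin probe sets are given for WT day 4 against WT day 1, Sox17 heterozygotes against WT day 4, and heterozygotes against WT day 1, in this order, and were 5, 0 and 3 in the default limma model. Beside each count stands the share called over all probe sets in the same model, which was 9.19%, 0% and 6.07% in the default one. Counts that moved by over 1.5 times were 5 in the last comparison with quantile normalization (7.64%), 3 in the first with each array centred on its median (6.29%), 8 and 8 in the first and last with a pseudocount of 32 (15.4% and 11.9%), and 9, 1 and 11 with a pseudocount of 100 (19.2%, 0.598% and 15.5%). They were 9, 2 and 11 with a mean signal of at least 100, which left 19 annexin probe sets (35.3%, 0.905% and 28.9% of the 18895 probe sets kept). Anxa9 and Anxa8 clear that filter only through the groups in which they are high, so their calls there support nothing. The counts were 11, 3 and 12 with an intensity trend (20.7%, 2.37% and 17.1%), 8 and 8 in the first and last at an adjusted p under 0.10 (16.5% and 12%), and 0 in the first with only the 4 arrays of the compared groups (0%, with 9 annexin probe sets and 21.2% of all at an unadjusted p under 0.05). Leaving out 1 array gave 0 to 3 (0% to 8.99%), 0 (0%, with 3 or 4 annexin probe sets and 6.97% to 25.5% of all at an unadjusted p under 0.05) and 0 to 3 (0% to 7.53%). With the intensity trend the counts were 10, 1 and 10 without heterozygous array 253 (17.2%, 0.375% and 10.4%), 9, 3 and 7 without 281 (17.2%, 0.879% and 9.62%), 12, 2 and 12 without WT day 4 array 277 (21.4%, 2.2% and 22.8%), 9, 4 and 12 without 284 (26%, 5.96% and 22.6%), 9, 2 and 10 without WT day 1 array 302 (13.4%, 2.21% and 11.1%), and 8, 3 and 9 without 303 (14.8%, 2.15% and 12%). Where this leaves a group with 1 array, that array is assumed to vary like the others. A further pair of alternatives was chosen after seeing the data: the intensity trend with median-centred arrays called 2 in the heterozygous comparison (0.567%), and centring on bright probe sets gave the default counts. Of the log2 changes of single annexins, 562 kept their side of the threshold, 85 newly passed it, 28 no longer passed it and 0 called changes turned sign. The cause of these shifts was not tested. The median change over all probe sets was 0.24, −0.18 and −0.01 as deposited, and 0.058, −0.004 and 0.036 after quantile normalization. No paired analysis was possible because the sample numbers in the labels are not shared between groups. Precision is limited by 2 arrays a group and by low signals of Anxa8 in heterozygotes and Anxa9 in WT day 4, whose fold changes depend on the pseudocount (at 100, −1.38 and 2.31 between heterozygotes and WT day 4).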
